A study of Mus musculus with 16 samples.

Results

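The growth hormone and IGF1 axis was followed through 10 genes chosen by name: the secreted factor Igf1, its carriers Igfals, Igfbp2 and Igfbp4, the growth hormone receptor Ghr, the kinase Jak2, the transcription factors Stat5a and Stat5b, and the feedback inhibitors Socs2 and Cish. They were among 25795 tested features, 15251 of them with a gene name, and were read by 18 probes, all well above background on all 16 arrays. Liver RNA came from male ApoE KO mice, which lack apolipoprotein E, fed a high-fat diet, with a stated age of 8 weeks and livers taken after 8 weeks. The miR-185-inh group (8 samples) had been injected with lentiviruses that encode an antisense inhibitor of the microRNA miR-185, and the ctrl-inh group (8 samples) had been given a control inhibitor. Genotype, sex, diet and tissue were shared by all mice, and the labels used here do not name the promoter of the lentivirus or the liver cells that took it up. The series was designed around bile acid metabolism, and the growth hormone axis is not named among its questions.

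Pituitary growth hormone binds its receptor on hepatocytes, the receptor-bound kinase JAK2 phosphorylates STAT5, and STAT5 drives transcription of Igf1, of Igfals and of the inhibitors Socs2 and Cish. In blood IGF1 is held by binding proteins and the acid-labile subunit, which prolong its life there. In rodents the pulsatile male pattern of growth hormone also sets the male programme of liver genes, largely through STAT5B.

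Each array carried 59305 non-control spots, of which 58.8% to 74.8% were well above background, and the median signal per array lay between 182 and 268. All miR-185-inh arrays lay on slide 2 and all ctrl-inh arrays on slide 1, each with its own scan, which means that treatment cannot be told apart from slide or scan. A slide has 2 rows of 4 arrays, and row 2 differed from row 1 in 0 features among miR-185-inh arrays and in 1202 (4.68%) among ctrl-inh arrays (limma, adjusted p under 0.05). Each sample is called a mouse here by the number in its label, but separate animals are not stated in the labels, and the spread behind each p-value, that between the samples of a group, may be technical. Markers of hepatocytes were high on every array: their summed signal, in multiples of each array's 75th percentile signal, ran from 295 to 412 in miR-185-inh livers and from 315 to 424 in ctrl-inh livers. In whole liver, fewer cells of a type and less RNA per cell cannot be told apart.

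Of the 10 genes, Jak2 alone differed between the groups past the threshold, and it was higher in miR-185-inh livers by 0.46 on the log2 scale (1.38-fold). The other 9, among them Igf1 and Ghr, did not pass: the largest of their differences in size was -0.25 (Cish), and their adjusted p-values were 0.499 or more. Over all features, 4.61% were called, of which 1.30% of features lay higher and 3.31% lower in the miR-185-inh group (limma with Benjamini-Hochberg adjustment), so that 1 call among 10 genes stands near the background. Across the 10 genes 6 differences were above 0 and 4 below, with a median of 0.02, against a median of -0.03 and 42.9% above 0 over all features. The values of the groups did not overlap in 0.822% of all features and in 0 of the 10 genes. The plot of every liver's value shows this overlap gene by gene, and the plot of the differences sets the interval of each gene beside the others.

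**Figure D1:**
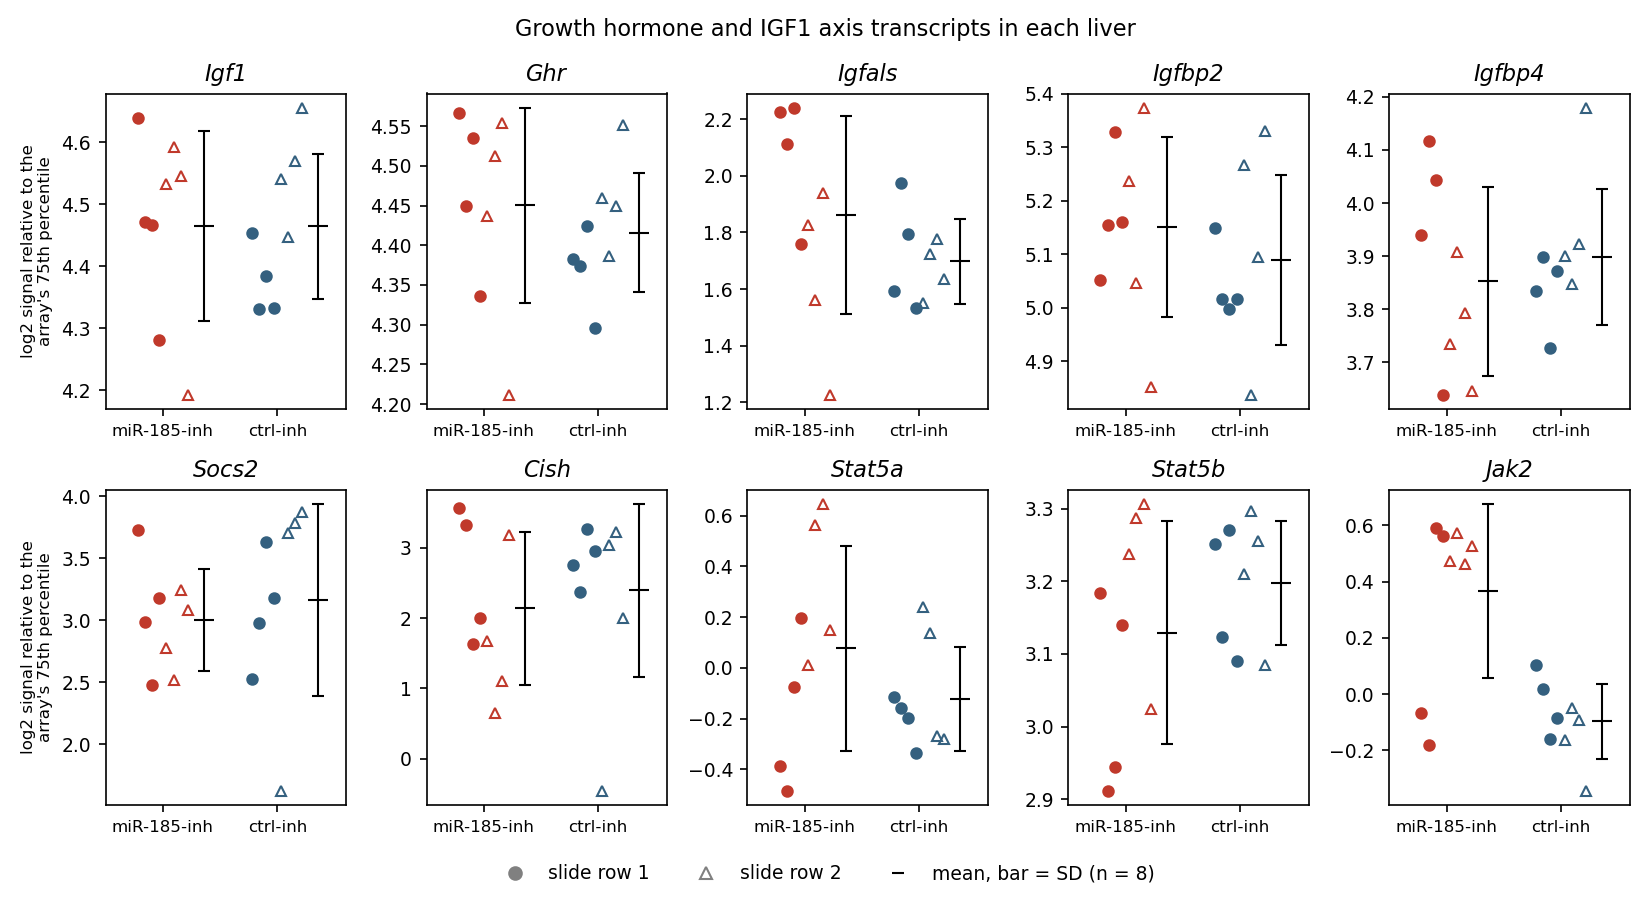
Signal of each of the 10 genes in every liver, in log2 units relative to the 75th percentile of the array, with miR-185-inh livers (red) left and ctrl-inh livers (blue) right in each panel, filled circles for slide row 1, open triangles for slide row 2, and the mean with an SD bar (n = 8 each). The axes differ between panels and do not start at a common value; for Jak2, 6 of the 8 miR-185-inh livers lie above the highest ctrl-inh liver, and the groups overlap for all 10 genes.

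**Figure D2:**
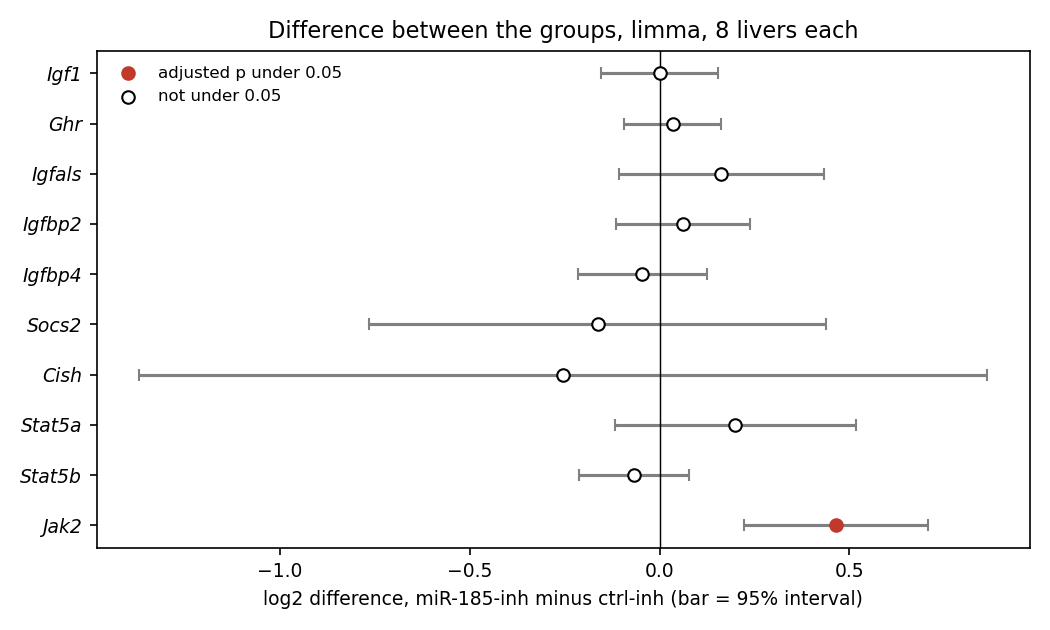
Difference of miR-185-inh minus ctrl-inh livers for each gene in log2 units (limma, 8 livers in each group), with bars for the 95% interval. Only the interval of Jak2 (filled, red) leaves out 0, and those of Cish and Socs2 are the widest.

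Jak2 encodes the tyrosine kinase that sits on the growth hormone receptor and on many cytokine receptors. Its values, in log2 units relative to the array's 75th percentile as for all values that follow, had a lowest of -0.18, a median of 0.50 and a highest of 0.59 in miR-185-inh livers, against a lowest of -0.34, a median of -0.09 and a highest of 0.10 in ctrl-inh livers. The 6 miR-185-inh mice numbered 6 to 12 lay close together between 0.46 and 0.59, above every ctrl-inh liver, while mice 1 and 3, at -0.07 and -0.18, lay inside the ctrl-inh range. The means were 0.37 ± 0.31 in miR-185-inh livers and -0.10 ± 0.13 in ctrl-inh livers (SD, n = 8 each). The difference was 0.46 (SE 0.11, 95% interval 0.22 to 0.71, or 1.17-fold to 1.63-fold), with adjusted p = 0.0297 by limma, and 7 of 8 miR-185-inh livers lay above the ctrl-inh mean. Over all 6435 ways to divide the 16 samples into 8 and 8, a two-sided exact permutation test gave p = 0.00466, unadjusted, where the smallest p it can give is 0.0001554.

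The Jak2 call stood close to its threshold. Within slide row 1 the difference was 0.26 (limma adjusted p = 0.485, where 0.00% of all features were called), and within slide row 2 it was 0.67 (limma adjusted p = 0.0280, where 1.55% of all features were called and 0.446% were called higher). The rows themselves did not differ in this respect past the threshold (interaction adjusted p = 0.377 by limma). Leaving out 1 mouse at a time gave differences between 0.43 and 0.54 and limma adjusted p-values between 0.00374 and 0.0620, and the call was lost in 9 of the 16 cases: without miR-185-inh mouse 6, 7, 8, 9 or 12, or without ctrl-inh mouse 3, 8, 11 or 12. With slide row and column as covariates the limma adjusted p was 0.0506.

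Mice 1 and 3 were the lowest pair of the miR-185-inh group for Stat5a as well as for Jak2, but not for the other 8 genes. The same pair was lowest in 6.08% of all features, in 32.8% of the 335 features called higher and in 1.29% of the 853 called lower. Ccny, Klhl13 and Cbx8, 3 genes named after their values were seen, also had mice 1 and 3 as their lowest pair: Ccny stood at -1.83 and -1.40 in mice 1 and 3 and between -0.30 and 0.03 in the rest of that group, against -2.10 to -1.05 in ctrl-inh livers. Klhl13 stood at -1.31 and -1.67 in mice 1 and 3 and between -0.60 and -0.30 in the rest of that group, against -2.02 to -1.35 in ctrl-inh livers. Cbx8 stood at -3.37 in both mice 1 and 3 and between -3.22 and -2.18 in the rest of that group, against -3.96 to -3.44 in ctrl-inh livers, so for Cbx8 the pair lay above the ctrl-inh range. Neutrophil granule markers, a list of 7, were below 0 in difference in 7 of 7. Ltf (-1.97) and Ngp (-1.22) were called lower, as were 3.31% of all features. Ltf was well above background on 3 miR-185-inh and 8 ctrl-inh arrays, and Mpo on 3 and 7. These genes thus passed the probe filter mainly through the ctrl-inh arrays, and their differences rest on low miR-185-inh signal. The summed signal of the 7 markers ran from 1.72 to 11 in miR-185-inh livers and from 3.72 to 13.2 in ctrl-inh livers. Pancreatic acinar markers went both ways, 3 above 0 and 4 below of 7 tested. Of these, 6 had an unadjusted limma p under 0.05, against 20.1% of all features, and 1 was called lower. Kupffer cell markers were below 0 in 6 of 6 tested, with differences from -0.25 to -0.001, and 0 passed. Of all features 42.9% lay above 0. In the hepatocyte, stellate, endothelial, cholangiocyte and lymphocyte lists 0 passed. The part of any of these cell types in the Jak2 difference was not tested.

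Igf1 encodes the hormone itself, made mostly by hepatocytes in response to growth hormone. It had a lowest of 4.19, a median of 4.50 and a highest of 4.64 in miR-185-inh livers, against a lowest of 4.33, a median of 4.45 and a highest of 4.66 in ctrl-inh livers. The group ranges nearly coincided, with miR-185-inh mice 7 and 12 lowest of all. The means were 4.46 ± 0.15 in miR-185-inh livers and 4.46 ± 0.12 in ctrl-inh livers (SD, n = 8 each), a difference of 0.00 (SE 0.07, 95% interval -0.15 to 0.16, limma adjusted p = 0.998). The interval corresponds to 0.899-fold to 1.11-fold, and 3 further Igf1 probes gave differences of -0.01, -0.03 and 0.05.

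The carriers did not pass either. Igfals encodes the acid-labile subunit, which holds IGF1 in its large complex in blood. Its lowest, median and highest values were 1.23, 1.88 and 2.24 in miR-185-inh livers, against 1.53, 1.68 and 1.98 in ctrl-inh livers. The miR-185-inh livers spread over more than the whole ctrl-inh range, with mice 1, 3 and 6 above it and mouse 12 below it. The difference was 0.16 (SE 0.13, 95% interval -0.11 to 0.43, limma adjusted p = 0.519). Within row 1 it was 0.36 and within row 2 it was -0.03, and neither passed.

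Igfbp2 encodes a binding protein that keeps IGFs from their receptor. It had a lowest of 4.85, a median of 5.16 and a highest of 5.37 in miR-185-inh livers, against 4.84, 5.06 and 5.33 in ctrl-inh livers. Both groups covered almost the same range, and the difference was 0.06 (SE 0.08, 95% interval -0.12 to 0.24, limma adjusted p = 0.737). A further Igfbp2 probe gave 0.05. Igfbp4, which also sequesters IGFs until the protease PAPP-A cuts it, had a lowest of 3.64, a median of 3.85 and a highest of 4.12 in miR-185-inh livers, against 3.73, 3.89 and 4.18 in ctrl-inh livers. The ctrl-inh maximum was mouse 12 alone, with the next ctrl-inh liver at 3.92. The difference was -0.05 (SE 0.08, 95% interval -0.22 to 0.13, limma adjusted p = 0.809).

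Ghr, the receptor that makes a hepatocyte responsive to growth hormone, was the least variable of the 10 genes, with a pooled SD of 0.10. Its lowest, median and highest values were 4.21, 4.48 and 4.57 in miR-185-inh livers, against 4.30, 4.41 and 4.55 in ctrl-inh livers. Mouse 12 of the miR-185-inh group was the lowest of all 16 livers, as it was for Igf1 and Igfals. The groups overlapped, and the difference was 0.03 (SE 0.06, 95% interval -0.09 to 0.16, limma adjusted p = 0.804). A further Ghr probe gave 0.04.

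Stat5a and Stat5b are neighbouring genes for closely related transcription factors. Each is read by probes of its own. Stat5b, the form that carries most of the growth hormone response in mouse liver, had a lowest of 2.91, a median of 3.16 and a highest of 3.31 in miR-185-inh livers, against 3.08, 3.23 and 3.30 in ctrl-inh livers. Mice 3, 6 and 12 of the miR-185-inh group lay below every ctrl-inh liver, and the rest overlapped. The difference was -0.07 (SE 0.07, 95% interval -0.21 to 0.08, limma adjusted p = 0.630). A further Stat5b probe had the opposite sign at 0.27 (exact permutation p = 0.400, n = 8 each), where ctrl-inh mouse 4 stood at 0.77 and the next ctrl-inh liver at 2.45.

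Stat5a, the form best known from prolactin action in mammary gland, had a lowest of -0.48, a median of 0.08 and a highest of 0.65 in miR-185-inh livers, against -0.33, -0.18 and 0.24 in ctrl-inh livers. The miR-185-inh group held both the lowest values (mice 1 and 3) and the highest (mice 9 and 10) of all livers. The difference was 0.20 (SE 0.15, 95% interval -0.12 to 0.52, limma adjusted p = 0.499), with 0.01 in row 1 and 0.39 in row 2.

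The feedback inhibitors varied far more from liver to liver than the genes that signal to them. Cish encodes an SH2 protein that STAT5 induces within a short time of a hormone pulse and that blocks further signalling, and Socs2 encodes the inhibitor whose loss in mice causes overgrowth. The pooled SD of Cish was 1.16, above that of 99.8% of all features, and that of Socs2 was 0.62, above 96.9%, where the median feature had 0.21. From the lowest liver to the highest, Cish spanned 16.2-fold and Socs2 4.78-fold, against 1.38-fold for Igf1 and 1.28-fold for Ghr.

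Cish stood at 3.56, 3.33, 1.63, 2.0, 1.67, 0.65, 1.1 and 3.18 in miR-185-inh mice 1, 3, 6, 7, 8, 9, 10 and 12, and at 2.75, 2.37, 3.28, 2.95, -0.46, 3.05, 3.22 and 2.0 in ctrl-inh mice 1, 2, 3, 4, 8, 9, 11 and 12. In the miR-185-inh group mice 1, 3 and 12 were highest and the other 5 spread from 0.65 to 2.0, while in the ctrl-inh group mouse 8 was far below the other 7, which spread from 2.0 to 3.28. The groups overlapped, with miR-185-inh mouse 7 and ctrl-inh mouse 12 at almost the same value. The means were 2.14 ± 1.09 in miR-185-inh livers and 2.40 ± 1.23 in ctrl-inh livers (SD, n = 8 each), a difference of -0.25 (SE 0.53, 95% interval -1.37 to 0.86, limma adjusted p = 0.838). That interval corresponds to 0.386-fold to 1.82-fold. Leaving out 1 mouse at a time gave differences from -0.66 (without ctrl-inh mouse 8) to -0.04 (without miR-185-inh mouse 9), and none passed.

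Socs2 stood at 3.73, 2.99, 2.48, 3.18, 2.78, 2.52, 3.24 and 3.08 in the miR-185-inh mice in the same order, and at 2.53, 2.98, 3.63, 3.18, 1.62, 3.71, 3.79 and 3.88 in the ctrl-inh mice. Ctrl-inh mouse 8 was again the lowest of all, and ctrl-inh mouse 12 was the highest. The means were 3.0 ± 0.41 in miR-185-inh livers and 3.16 ± 0.78 in ctrl-inh livers (SD, n = 8 each), a difference of -0.16 (SE 0.29, 95% interval -0.77 to 0.44, limma adjusted p = 0.805). With 1 mouse left out it ran from -0.38 (without ctrl-inh mouse 8) to -0.06 (without ctrl-inh mouse 12), and none passed. The 2 further Socs2 probes gave 0.04 and -0.05, so the sign depended on the probe, while within each group those probes followed the first with r of 0.982 to 0.998.

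**Figure D3:**
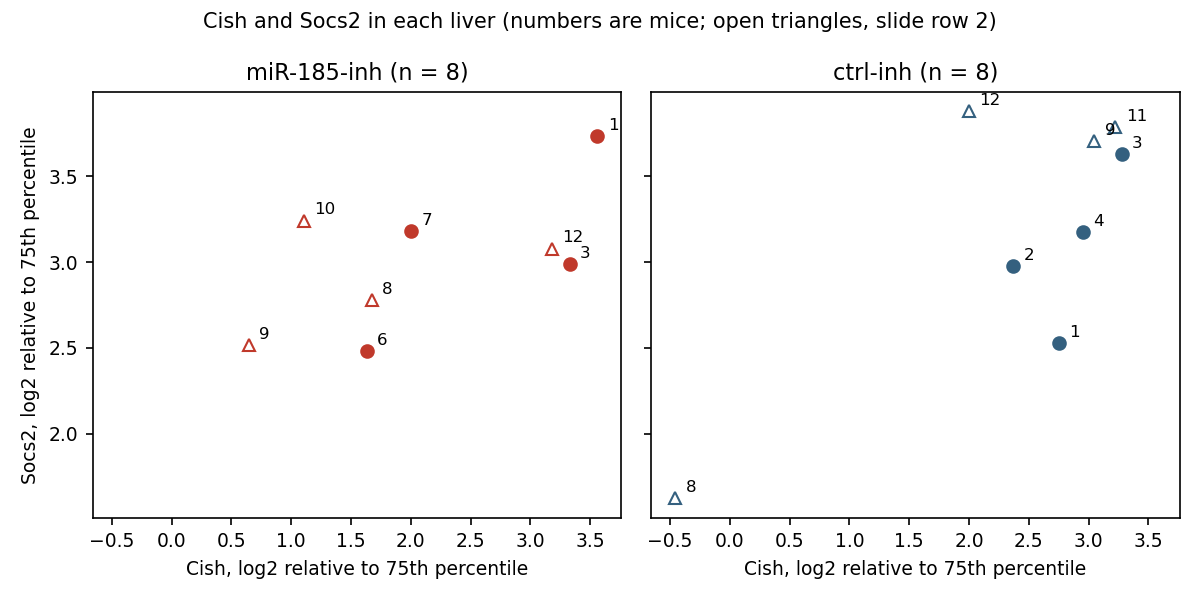
Socs2 (vertical axis) against Cish (horizontal axis) in each liver, both in log2 units relative to the array's 75th percentile, with miR-185-inh livers left and ctrl-inh livers right, numbers for mice and open triangles for slide row 2. Ctrl-inh mouse 8 lies alone at the lower left (-0.46 for Cish, 1.62 for Socs2), and miR-185-inh mouse 1 is highest of its group for both genes.

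Promoter sequence is shown for Cish and Igfals because, of the 10 axis genes, only these 2 had a window with the STAT5 palindrome TTCNNNGAA. RefSeq windows of GRCm38.p6, each from 250 bases before to 50 bases after a start site, were found for 9 of the 10 genes (15 windows). No window was found for Socs2, so Socs2 was not scanned. The motif reads the same on both strands, so 1 scan covers both, and neighbouring motifs could overlap in the count. It occurred in 3 of the 15 windows (20.0%), against 8.30% of all 32851 windows. The Cish window held it 2 times, and 0.457% of all windows held it 2 or more times. The motif was not particular to these 2 genes. Among genes of the lists described below, Bcl6 held it 1 time and 3 times in separate windows. Socs3 and Prlr each had a window that held it 1 time, while most windows of the listed genes held none. The stretches below are on the plus strand, 5′ to 3′, with each motif in capitals.
Cish, chr9:107296654-107296683: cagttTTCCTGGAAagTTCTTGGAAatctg
Igfals, chr17:24877598-24877627: gatctataatTTCTCAGAAaagaggctgag
Igfals, chr17:24878163-24878192: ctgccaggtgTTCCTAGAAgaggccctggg
The Cish motifs begin 1 and 12 bases into the transcript, and those of Igfals begin 236 and 58 bases before 2 separate start sites. These matches are descriptions of letters and not of binding, and Cish and Igfals themselves varied very differently, with a pooled SD of 1.16 for Cish and 0.27 for Igfals.

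Covariation was examined within each group, because each group had a slide of its own. Over 45 pairs of the 10 genes in 2 groups, 90 in all, 0 correlations passed an adjusted p of 0.05 by the exact permutation test over all pairings (n = 8), and 8 had an unadjusted p under 0.05, 4 in each group. By Spearman's rho 0 passed and 6 had an unadjusted p under 0.05. The median r was 0.12 in miR-185-inh livers and 0.00 in ctrl-inh livers.

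Igf1 and the growth hormone receptor Ghr gave the highest r in both groups, each gene read by its brightest probe. The further Ghr probe followed the one used with r of 0.624 in miR-185-inh livers and 0.377 in ctrl-inh livers. For the further Igf1 probes this r ran from 0.450 to 0.906 in miR-185-inh livers and from 0.271 to 0.889 in ctrl-inh livers. The relation of Igf1 and Ghr was not tested on the further probes. In miR-185-inh livers Pearson's r was 0.921 (exact permutation p = 0.00295, adjusted p = 0.133, n = 8) and Spearman's rho was 0.786 (exact permutation p = 0.0279, adjusted p = 0.591). In ctrl-inh livers r was 0.885 (exact permutation p = 0.00288, adjusted p = 0.133, n = 8) and rho was 0.857 (exact permutation p = 0.0107, adjusted p = 0.591). Without the 2 livers farthest from the median of Igf1, r was 0.481 in miR-185-inh livers (exact permutation p = 0.328, n = 6) and 0.815 in ctrl-inh livers (exact permutation p = 0.0389, n = 6), so in the miR-185-inh group the relation rests on those livers. Under quantile normalization r was 0.375 in miR-185-inh livers and 0.0735 in ctrl-inh livers, and with values centred on slide row it was 0.938 in miR-185-inh livers and 0.798 in ctrl-inh livers. With normexp r was 0.866 in miR-185-inh livers and 0.863 in ctrl-inh livers, and with the percentile over probes detected on every array it was 0.913 in miR-185-inh livers and 0.789 in ctrl-inh livers. Of these 4 alternatives, quantile normalization alone lowered the relation of Igf1 and Ghr to under 0.4, as the correlation maps show. The others still scaled each array by a constant, and the centring on slide row reused the main values. They therefore say little about scaling that varies with signal, which quantile normalization changes.

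Socs2 and Cish, both STAT5 targets, gave r of 0.613 in miR-185-inh livers (exact permutation p = 0.109, adjusted p = 0.413, n = 8; rho 0.500, exact permutation p = 0.216) and 0.773 in ctrl-inh livers (exact permutation p = 0.0483, adjusted p = 0.413, n = 8; rho 0.405, exact permutation p = 0.327). Quantile normalization left these at 0.623 in miR-185-inh livers and 0.805 in ctrl-inh livers. Without the 2 livers farthest from the median of Socs2, r was 0.396 in miR-185-inh livers (exact permutation p = 0.426, n = 6) and 0.115 in ctrl-inh livers (exact permutation p = 0.842, n = 6). In ctrl-inh livers the relation therefore rests on those 2 livers.

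The 3 negative correlations with an unadjusted p under 0.05 each involved Jak2 or Stat5a. Cish and Stat5a gave r of -0.805 in miR-185-inh livers (exact permutation p = 0.0189, adjusted p = 0.413, n = 8), and rho was -0.738 (exact permutation p = 0.0458), against r of -0.621 in ctrl-inh livers (exact permutation p = 0.100, n = 8). Cish and Jak2 gave r of -0.723 in miR-185-inh livers (exact permutation p = 0.0401, adjusted p = 0.413, n = 8; rho -0.619, exact permutation p = 0.115), which was -0.01 without the 2 livers farthest from the median of Cish. The same pair gave r of 0.301 in ctrl-inh livers (exact permutation p = 0.399, n = 8). Ghr and Jak2 gave r of -0.265 in miR-185-inh livers (exact permutation p = 0.560, n = 8). In ctrl-inh livers their r was -0.729 (exact permutation p = 0.0468, adjusted p = 0.413, n = 8; rho -0.810, exact permutation p = 0.0218), and under quantile normalization it was 0.330. The difference in r between the groups was not tested. None of these 3 passed the adjustment over the 90 pairs.

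**Figure D4:**
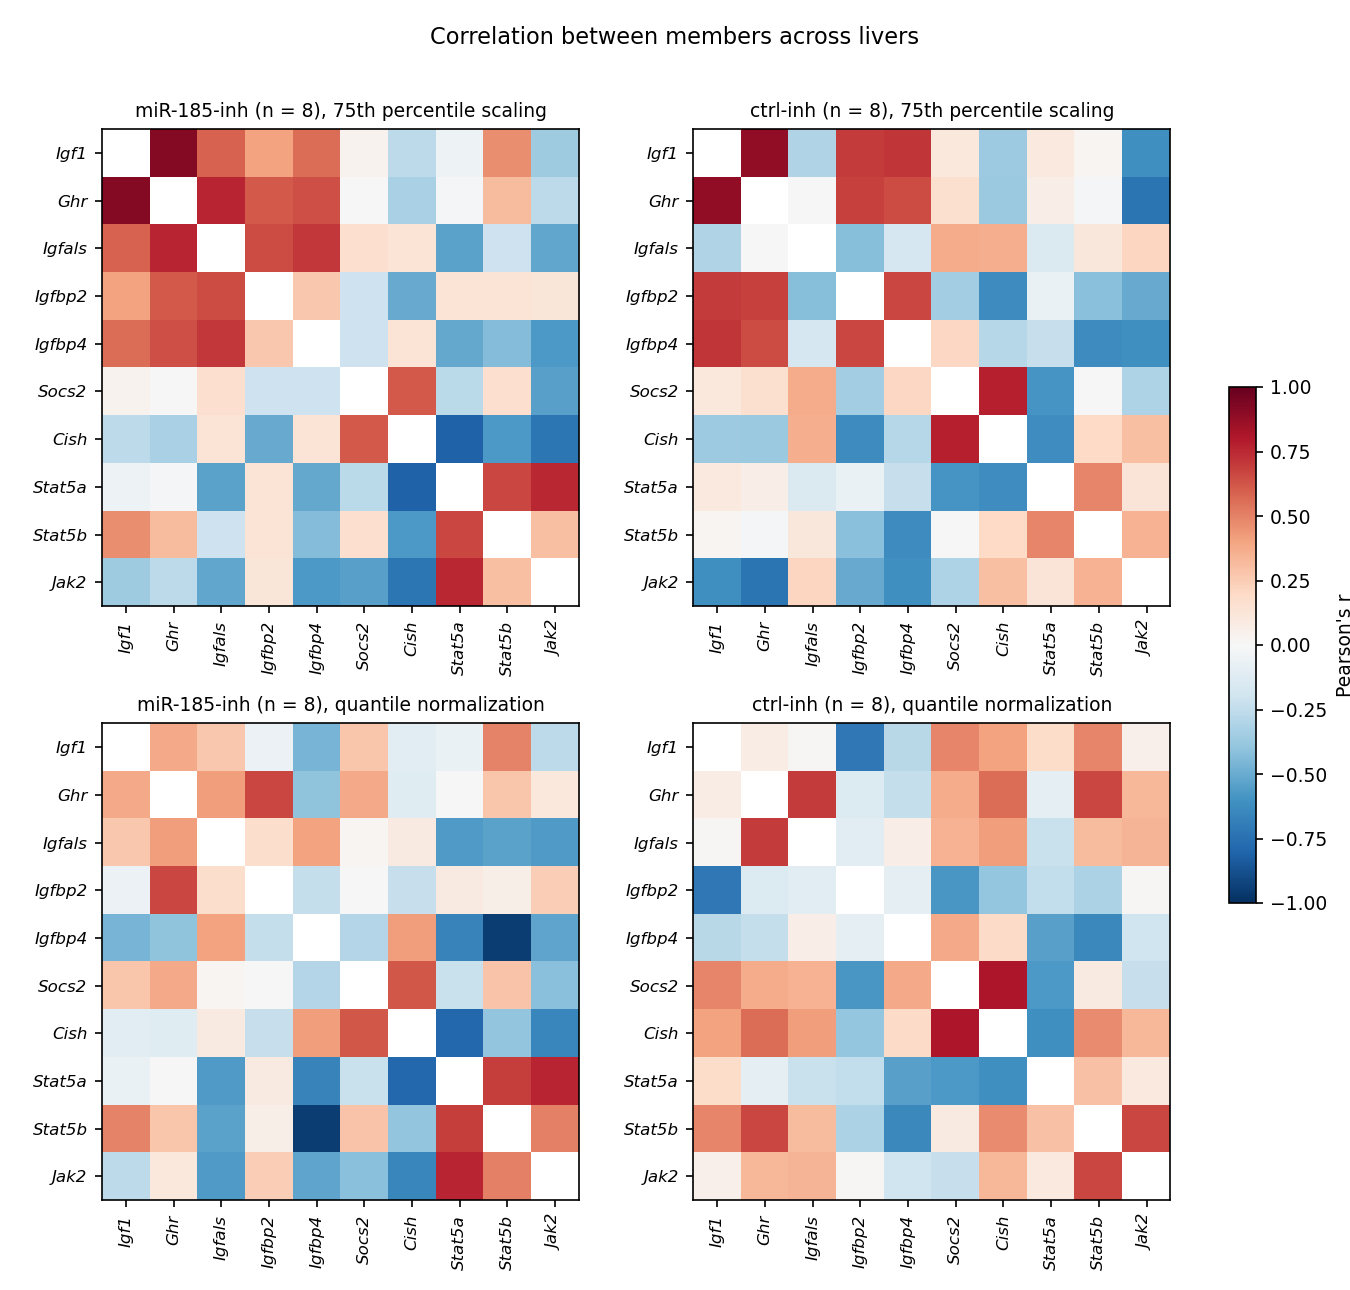
Pearson's r between every pair of the 10 genes across livers (red positive, blue negative, white at 0 and on the diagonal), for miR-185-inh livers left and ctrl-inh livers right (n = 8 each), with values scaled to the 75th percentile above and quantile normalized below. Igf1 with Ghr is at 0.921 in miR-185-inh livers and 0.885 in ctrl-inh livers in the upper maps and at 0.375 in miR-185-inh livers and 0.0735 in ctrl-inh livers in the lower ones, Igf1 with Igfbp2 in ctrl-inh livers turns from 0.702 above to -0.717 below, and Socs2 with Cish keeps r of 0.623 in miR-185-inh livers and 0.805 in ctrl-inh livers.

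Genes with the most similar pattern were ranked over 15158 named genes by the mean of the 2 within-group r (n = 8 each), as a description of values that share arrays and scaling. Nearest to Igf1 were Ran (0.959), Uqcrfs1 (0.953) and Acat2 (0.949), with Ghr at rank 76 (0.903). The genes closest to Cish were Zfp809 (0.949), Rgs3 (0.948) and Hhex (0.923), with Socs2 at rank 70 (0.693). For Socs2 they were Tuft1 (0.852), Rnf135 (0.847) and Tada1 (0.817), with Cish at rank 33. Igfbp2 had Cyp2c67 (0.939), Polr2b (0.906) and Mrpl32 (0.889) nearest to it.

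The wider pathway gave no call. Of 32 further genes of growth hormone, prolactin and IGF signalling, 31 could be tested, 16 with differences above 0 and 15 below, with a median of 0.01. By limma 0 passed the adjusted threshold, against 4.61% of all features, while 3 (9.68%) had an unadjusted p under 0.05, against 20.1% of all features. Igf2, the fetal growth factor, was well above background on 0 of 16 arrays and was not tested. Igf2r, the receptor that clears IGF2 and sorts lysosomal enzymes, came closest, at 2.28 ± 0.11 in miR-185-inh livers and 2.07 ± 0.10 in ctrl-inh livers (SD, n = 8 each), a difference of 0.21 (limma adjusted p = 0.0601) with 8 of 8 miR-185-inh livers above the ctrl-inh mean. It passed under 3 alternatives: robust eBayes with a trend (adjusted p = 0.0443), without miR-185-inh mouse 1 (0.0440) and without ctrl-inh mouse 9 (0.0334), all by limma.

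Pappa, the protease that frees IGFs from IGFBP4, averaged 0.18 ± 0.29 in miR-185-inh livers and -0.16 ± 0.21 in ctrl-inh livers (SD, n = 8 each), with a limma adjusted p of 0.118. Igfbp1, a binding protein that insulin represses, averaged 3.85 ± 0.59 in miR-185-inh livers and 4.39 ± 0.26 in ctrl-inh livers (SD, n = 8 each), a difference of -0.53 (limma adjusted p = 0.156) with 1 of 8 miR-185-inh livers above the ctrl-inh mean. Igfbp3, the main IGF carrier of blood, differed by 0.35 (limma adjusted p = 0.327), and Stat3 by -0.20 (limma adjusted p = 0.280). The IGF1 receptor Igf1r (-0.04), the prolactin receptor Prlr (0.04) and the inhibitor Socs3 (0.02) lay near 0, and none of these genes passed.

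The sexually dimorphic genes that report on the growth hormone pattern in mouse liver were read as a further list. Of 23 male-predominant genes, 18 had a matched probe and were tested, 6 with differences above 0 and 12 below, with a median of -0.01. By limma 0 passed and 0 had an unadjusted p under 0.05. Over all features 4.61% passed and 20.1% had an unadjusted p under 0.05. The differences of all features were above 0 in 42.9%, with a median of -0.03. The steroid dehydrogenase Hsd3b5 differed by 0.10, and the cytochromes Cyp7b1, Cyp4a12a and Cyp2d9 by 0.08, 0.01 and -0.01. Mup20, a urinary pheromone carrier, differed by -0.11, Mup3 by -0.18, Mup2 by -0.16 and Mup21 by 0.12, and since Mup genes are near-identical copies their probes may share signal. Egfr differed by -0.02. The fatty acid elongase Elovl3 differed by 0.00 but varied more in miR-185-inh livers (SD 0.71) than in ctrl-inh livers (SD 0.22), a difference in spread that was not tested. Bcl6, the male-predominant repressor of female genes, averaged 3.19 ± 0.56 in miR-185-inh livers and 2.82 ± 0.64 in ctrl-inh livers (SD, n = 8 each; limma adjusted p = 0.486).

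Of 23 female-predominant genes, 22 had a matched probe and 12 could be tested, 9 with differences above 0 and 3 below, with a median of 0.09. Again 0 passed by limma and 0 had an unadjusted p under 0.05, against 4.61% and 20.1% of all features. Of all features 42.9% had a difference above 0. Acot3, an acyl-CoA thioesterase, differed by 0.23 (limma adjusted p = 0.266), the cytochrome Cyp3a44 by 0.40 (limma adjusted p = 0.272), the proton pump subunit Atp6v0d2 by 0.37 (limma adjusted p = 0.496) and the monooxygenase Fmo2 by 0.24 (limma adjusted p = 0.559). With slide row and column as covariates Cyp3a44 passed (limma adjusted p = 0.0420). Among the genes not tested, Cyp2b9 and Cyp2b13 were well above background on 0 arrays of either group. Sult1e1 was so on 1 miR-185-inh and 3 ctrl-inh arrays, and the female-specific factor Cux2 was so on 1 miR-185-inh and 0 ctrl-inh arrays.

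**Figure D5:**
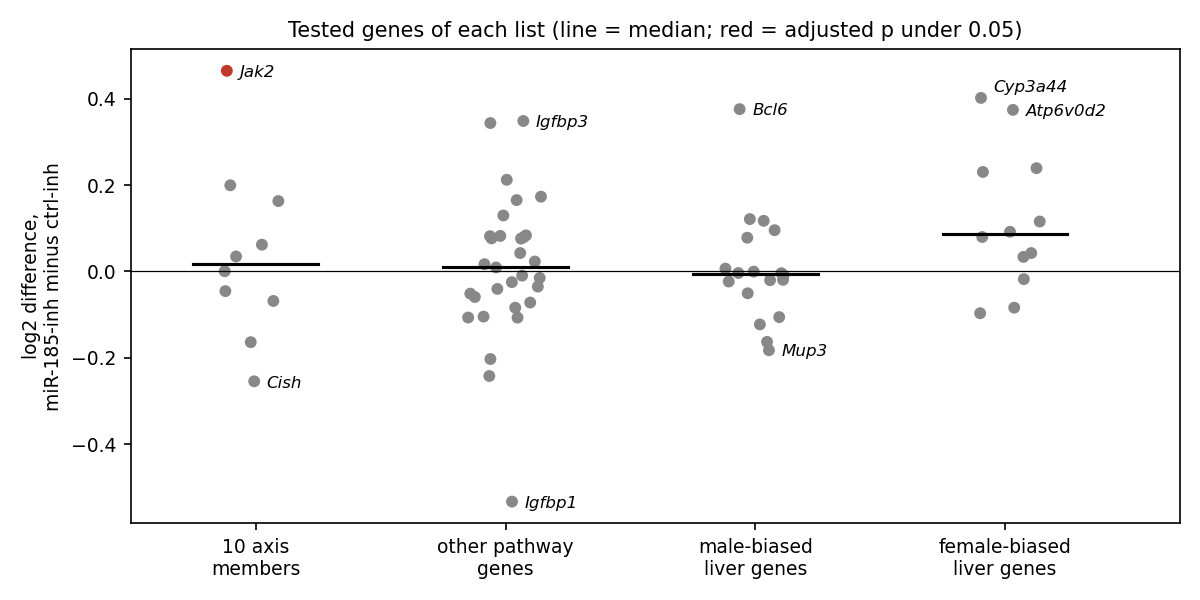
Difference of miR-185-inh minus ctrl-inh livers, in log2 units, for every tested gene of 4 lists: the 10 axis genes, 31 further pathway genes, 18 male-predominant and 12 female-predominant liver genes (points spread sideways for legibility, line at the median). Jak2 is the 1 red point, at 0.46 with an adjusted p under 0.05, and the medians of the lists lie between -0.01 and 0.09.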

How the data were processed

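Liver RNA of 16 samples was hybridised to 1-colour Agilent arrays, 1 array per sample, and groups were taken from the treatment labels. Each deposited scanner file gives a processed intensity per spot, with background subtraction and detrending by Feature Extraction 11.5.1.1 per the file headers. In the submitters' processing notes the version is 9.1. The authors' deposited table holds log2 values, each column equal to log2 of the processed intensity minus 1 constant per array over 35985 matched probes, with column medians from -1.30 to -1.22. The choice of that constant is not given in the labels or headers. No centring by gene was found, and the direction needs no setting.

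From these, log2 intensities were set relative to the 75th percentile of the array (control spots excluded). Non-uniform and population outlier spots were dropped, and repeated spots were averaged per probe. A probe was kept if 8 or more of the 16 arrays, whatever the group, had it well above background, and the brightest probe represented a gene. Probe accessions, stripped of versions, were looked up in the RefSeq table of GRCm38.p6 for names only (26762 of 55681 probes, 20284 symbols), because the array grid is on another build, mm9. The group comparison used limma 3.58.1 under R 4.3.3, two-sided (lmFit, then eBayes), adjusted by Benjamini-Hochberg over all features at 0.05. Exact permutation tests ran over all splits or pairings in numpy 2.4.6, with ranks from scipy 1.17.1. The fit was tested on simulated data. The number of arrays limits the precision.

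The 10 genes, the lists and the named genes were chosen with earlier results of these data known. The rule named all 10 genes, a set of genes of the lists, the 4 smallest p-values of each list, and the 3 genes most like Igf1, Socs2, Cish and Igfbp2. Alternatives were normexp (offset 50, on the median spot signal, since the mean was not read), quantile normalization, the percentile taken over probes detected on every array, the authors' table, other probe filters and eBayes settings, row and column covariates, single slide rows, a replicate block and each mouse left out.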

Additional observations from a re-analysis of the deposited data

Results flagged for a closer look

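In 82 groups of 8 values tested for a stray liver, 6 had a highest or lowest value whose gap to the next exceeded 0.526 of the group's range, where chance flags about 1 group in 20. Among the axis genes, Cish in ctrl-inh mouse 8 stood lowest of its group at -0.46, with the next at 2.0. Igfbp4 in ctrl-inh mouse 12 stood highest of its group at 4.18, with the next at 3.92. Both remaining flags on axis genes fell on a further probe of ctrl-inh mouse 4, lowest at 3.25 for Ghr (next 3.40) and lowest at 0.77 for Stat5b (next 2.45). In the wider pathway, Igfbp1 in ctrl-inh mouse 3 was lowest at 3.79 (next 4.33), and Stat3 in miR-185-inh mouse 9 was highest at 3.61 (next 3.22).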

How the results depend on the processing

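Jak2 kept its sign in all 28 alternatives and its call in 9 of 10 that changed the processing, with differences of 0.41 to 0.47. The only Jak2 probe was well above background on every array, so the other probe filters and the mean of probes reused the same Jak2 values. The eBayes setting, the covariates and the replicate block changed the fit and not these values. The Jak2 call was lost with row and column covariates (0 of the 10 genes called), in slide row 1 alone (0) and in 9 of 16 cases with 1 mouse left out (0 to 1 called). Igf1 turned its sign in 13 alternatives, from a difference of 0.00, without a call in any. Features called numbered 1188, against 1818 with the percentile over detected probes (324 higher, 1494 lower), 0 in row 1 alone, 400 in row 2 alone and 718 to 1566 with 1 mouse left out (718 without miR-185-inh mouse 7, 751 without miR-185-inh mouse 6, 771 without ctrl-inh mouse 12, 779 without ctrl-inh mouse 11). The split of 335 higher and 853 lower became 567 and 571 with normexp and 390 and 414 with quantile normalization, but Jak2 stayed higher and called in both. Further pathway genes called numbered 0, against 1 (Igf2r) with robust eBayes and 0 to 1 with 1 mouse left out, and female-predominant genes numbered 0, against 1 (Cyp3a44) with row and column covariates. By the exact permutation test taken singly, 1 axis gene passed, against 0 in row 1 alone and 1 to 2 with 1 mouse left out (Igfals at p = 0.0354 without miR-185-inh mouse 12). Covarying pairs numbered 0, and 1 under quantile normalization (Igfbp4 with Stat5b in miR-185-inh livers, r = -0.953, adjusted p = 0.0446). The cause of these changes was not tested, and single rows also hold fewer arrays. With mouse number as a replicate block, 1036 features and Jak2 (0.47, limma adjusted p = 0.0348) were called. Deviations of same-numbered mice correlated between -0.128 and 0.107. Whether these samples share more than a number cannot be told from this, since they lie on different slides. Probes at low signal limit Cux2, Cyp2b9 and the other untested genes.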
